A study of Arabidopsis thaliana with 8 samples.

Results

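The endoplasmic reticulum (ER) folds the proteins that a plant cell secretes or places in its membranes, and 10 genes of this folding machinery were followed here in Arabidopsis thaliana leaves. They are the 3 BiP genes BIP1 (AT5G28540), BIP2 (AT5G42020) and BIP3 (AT1G09080), the lectin chaperone genes CNX1 (AT5G61790), CRT1 (AT1G56340), CRT2 (AT1G09210) and CRT3 (AT1G08450), the protein disulfide isomerase gene PDIL1-1 (AT1G21750), the GRP94 gene SHD (AT4G24190) and the transcription factor gene BZIP60 (AT1G42990). Each gene was chosen by its locus, and every array probe matched to that locus was kept. This gave 17 of the 43603 probes on the array.

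BiP is the HSP70 of the ER, and GRP94 is its HSP90. Calnexin (CNX) and the calreticulins (CRT) hold newly made glycoproteins through their sugar chains, while protein disulfide isomerases form and shuffle disulfide bonds. When unfolded proteins accumulate, the membrane sensor IRE1 splices the bZIP60 messenger RNA, bZIP28 and bZIP17 are cut free from the membrane, and these factors raise chaperone transcripts; this is the unfolded protein response (UPR). In leaves the same chaperones also rise during defence, when much protein is secreted, a step in which the coactivator NPR1 and the factor TBF1 have roles.

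The 2 groups were 35S::Rap2.9-GFP plants (4 arrays), which carry a fusion of the AP2/ERF transcription factor RAP2.9 with green fluorescent protein, and wild-type plants (4 arrays). Both were in the Col-0 background, were 54 days old and had received no treatment. All plants grew for 20 days with 8 h of light per day and then for 34 days with 12 h. The 35S promoter is a strong viral promoter active in most plant cells, and the labels call the genotype a transgenic line without saying how many independent lines were sampled. RNA from leaves, 4 samples per genotype that the submitters call biological replicates, was labelled with Cy3 and put on 1-colour Agilent arrays.

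All values are log2 processed signals from which the 75th percentile of that array's log2 signals was subtracted, so 0 marks a probe as bright as that percentile, and probes are compared only with themselves. The 75th percentile of the signal ran between 1707 and 2582 on the 8 arrays, and 72.5% to 84.4% of probes were well above background, with the highest share on 35S::Rap2.9-GFP replicate 1. The number of arrays limits the precision. In the limma fit over all 33165 tested probes, with Benjamini-Hochberg adjustment and a threshold of 0.05, the brightest RAP2.9 probe (AT4G06746) was 17.7-fold higher in 35S::Rap2.9-GFP (log2 change 4.14 ± 0.15, SE, n = 4 each, adjusted p = 5.5e-06). A second RAP2.9 probe went the other way, with a log2 change of -1.77 ± 0.23 (adjusted p = 0.00116). Its position in the transcript was not analysed here, so whether it reads the transgene is not known. Slide 1 and slide 2 both carried 2 arrays per genotype.

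All 17 probes exceeded background clearly on the 8 arrays and none was saturated. Each gene is represented by its brightest probe in the counts. By that rule 6 of the 10 genes were higher in 35S::Rap2.9-GFP leaves, 0 were lower and 4 did not pass the threshold. Over all 25107 genes tested, 18.6% were higher and 15.9% were lower. The median log2 change of the 10 genes was 0.35, against 0.03 over all genes. In RNA of whole leaves, fewer cells of a type and less RNA per cell cannot be told apart. The 6 genes were BIP1, BIP2, BIP3, CRT1, CRT2 and SHD, and the 4 others were CNX1, CRT3, PDIL1-1 and BZIP60. Counted by probe, 8 of 17 were higher and 9 did not pass, beside 18.2% of all probes called higher. In 5 of the 10 genes every 35S::Rap2.9-GFP array lay above every Col-0 array, a pattern shown by 19.7% of all genes. With each array scaled to its median instead, 2 of the 10 genes, BIP3 and CRT2, stayed past the threshold, and the split over all genes changed to 3217 higher and 5083 lower, against 4668 higher and 3989 lower with the 75th percentile. The median change was then 0.26 for the 10 genes and -0.059 over all genes. With normexp background correction CRT2 alone passed, and the change of BIP3 was 0.72 (adjusted p = 0.21). That correction was distorted by extreme local backgrounds on 2 arrays, and with these replaced, an alternative chosen after seeing the data, 6 genes passed.

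**Figure D1:**
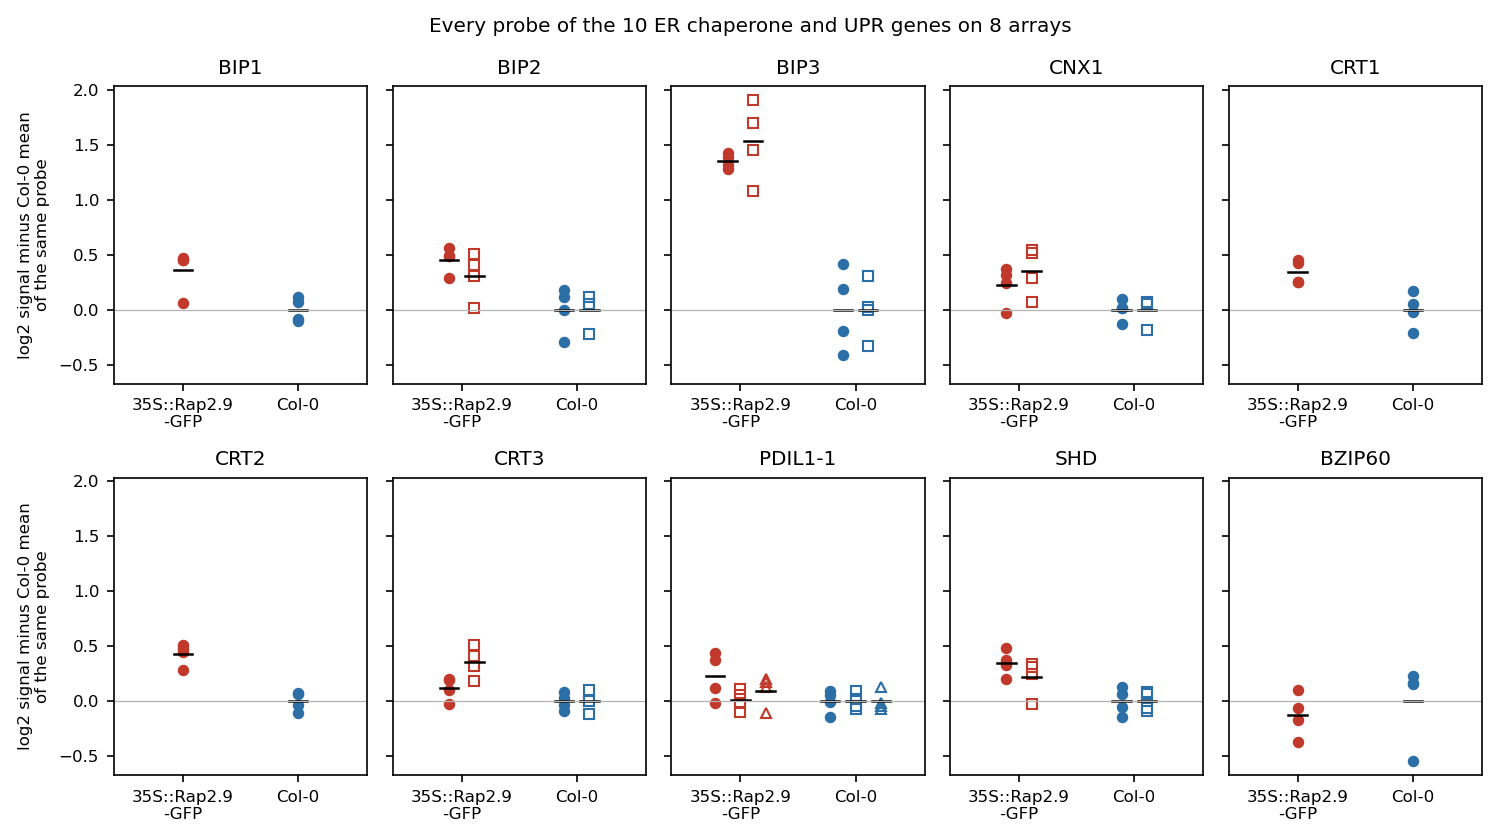
Log2 signal of each probe minus the Col-0 mean of the same probe, for the 10 genes. Each point is 1 array, circles are the brightest probe of a gene, squares and triangles its other probes, and bars are means of 4 arrays. BIP3 stands highest, with means of 1.35 and 1.54 for its probes, while the other chaperone genes have means of 0.02 to 0.45 and BZIP60 lies at -0.12.

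BIP3 had the largest change of the 10 genes. Of the 3 BiP genes it is the one known to be nearly silent until ER stress, while BIP1 and BIP2 serve at all times. Its brightest probe had log2 signals of -2.24, -2.38, -2.27 and -2.34 in 35S::Rap2.9-GFP leaves, against -4.07, -3.85, -3.24 and -3.48 in Col-0 leaves. The genotypes did not overlap, and the 4 transgenic arrays lay within a narrow band while the Col-0 arrays were spread over a wider one. BIP3 was 2.55-fold higher in 35S::Rap2.9-GFP (log2 change 1.35 ± 0.17, SE, n = 4 each, 95% interval 0.95 to 1.75, adjusted p = 0.00112 in limma). The second, dimmer probe gave -3.44, -4.27, -3.65 and -3.89 in 35S::Rap2.9-GFP, against -5.68, -5.35, -5.04 and -5.32 in Col-0. It showed the same separation, at 2.9-fold (1.54 ± 0.20, adjusted p = 0.00124). Within slide 1 the difference was 1.29 for the brightest probe and 1.28 for the dimmer one. Within slide 2 it was 1.41 and 1.79. The call of the brightest probe held in each of the 8 fits with 1 array removed.

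BIP2 was higher by a smaller amount. Its brightest probe had 2.26, 2.45, 2.45 and 2.53 in 35S::Rap2.9-GFP leaves, against 1.67, 2.15, 2.09 and 1.96 in Col-0 leaves. The genotypes did not overlap, and Col-0 replicate 1 was the lowest of the 8 arrays. The change was 0.45 ± 0.11 (SE, n = 4 each, 95% interval 0.19 to 0.72, adjusted p = 0.0197), or 1.37-fold, and it was 0.61 within slide 1 and 0.30 within slide 2. Its second probe had a change of 0.31 ± 0.12 that did not pass the threshold (adjusted p = 0.0902). The call of the brightest probe was lost without 35S::Rap2.9-GFP replicate 4 (adjusted p = 0.0536) and without Col-0 replicate 4 (adjusted p = 0.0505), and with median scaling (adjusted p = 0.0728).

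BIP1, whose protein is nearly identical to that of BIP2, had 2.44, 2.82, 2.84 and 2.82 in 35S::Rap2.9-GFP leaves, against 2.27, 2.44, 2.49 and 2.29 in Col-0 leaves. Here the genotypes overlapped, because 35S::Rap2.9-GFP replicate 1 lay among the Col-0 arrays. The change was 0.36 ± 0.11 (SE, n = 4 each, adjusted p = 0.0368), or 1.28-fold, with 0.44 within slide 1 and 0.28 within slide 2. The call was lost in more of the settings run than that of any other of the 6 genes. Of the 8 fits with 1 array removed, 6 lost it (adjusted p up to 0.0934), namely those without Col-0 replicate 1, 2 or 4 or without 35S::Rap2.9-GFP replicate 2, 3 or 4. It was also lost with median scaling (adjusted p = 0.163) and without a filter on dim probes (0.0633), while without 35S::Rap2.9-GFP replicate 1 the change was 0.46 (adjusted p = 0.00546). BIP1 and BIP2 are closely alike in sequence, and whether one transcript gives signal on the probe of the other was not tested.

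SHD, the GRP94 gene, encodes the ER HSP90 that acts after BiP on a set of secreted and membrane proteins. Its brightest probe had 3.90, 4.02, 4.18 and 4.08 in 35S::Rap2.9-GFP leaves, against 3.64, 3.82, 3.77 and 3.55 in Col-0 leaves. The lowest transgenic array lay above the highest Col-0 array. SHD was 1.27-fold higher (log2 change 0.35 ± 0.08, SE, n = 4 each, adjusted p = 0.0167), with the same difference of 0.35 within each slide. Leaving out any single array kept the call, and median scaling ended it (adjusted p = 0.105). The other SHD probe had a change of 0.22 ± 0.09 and did not pass (adjusted p = 0.105).

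Among the lectin chaperones, CRT1 and CRT2 were higher, CNX1 missed the threshold with both probes, and 1 of the 2 CRT3 probes passed it. CRT2, which RefSeq names CRT1b, had 2.16, 2.32, 2.38 and 2.34 in 35S::Rap2.9-GFP leaves, against 1.83, 1.95, 1.76 and 1.93 in Col-0 leaves. The genotypes were apart, and the spread within each was small. The change was 0.43 ± 0.07 (SE, n = 4 each, 95% interval 0.26 to 0.60, adjusted p = 0.00348), or 1.35-fold, with 0.53 within slide 1 and 0.33 within slide 2. CRT2 was the 1 gene of the 10 that passed the threshold in all 22 other settings run for the brightest probes.

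CRT1, which RefSeq names CRT1a and which resembles CRT2 closely, had 2.44, 2.44, 2.64 and 2.61 in 35S::Rap2.9-GFP leaves, against 1.98, 2.36, 2.17 and 2.24 in Col-0 leaves. These values did not overlap either, but the nearest arrays were close. CRT1 was 1.27-fold higher (log2 change 0.34 ± 0.09, SE, n = 4 each, adjusted p = 0.0264), with 0.45 within slide 1 and 0.24 within slide 2. The call was lost without replicate 3 of 35S::Rap2.9-GFP (adjusted p = 0.0672), replicate 4 of 35S::Rap2.9-GFP (0.0686), replicate 3 of Col-0 (0.0626) or replicate 4 of Col-0 (0.0512), and with median scaling (0.134).

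CRT3 is the calreticulin known in Arabidopsis for the folding of immune receptor kinases such as EFR. Its brightest probe had 4.88, 5.11, 5.10 and 5.00 in 35S::Rap2.9-GFP leaves, against 4.87, 4.93, 4.81 and 4.99 in Col-0 leaves. These overlapped, and the change of 0.12 ± 0.07 did not pass the threshold (adjusted p = 0.231). The dimmer CRT3 probe, which the array design assigns to another RefSeq transcript of the same gene, had 1.55, 1.69, 1.78 and 1.88 in 35S::Rap2.9-GFP, against 1.37, 1.37, 1.25 and 1.47 in Col-0. There the genotypes were apart and the change was 0.36 ± 0.08 (SE, n = 4 each, adjusted p = 0.0138), lost with median scaling (0.111). With the mean of the 2 CRT3 probes in the limma fit, the gene passed the threshold (change 0.24, adjusted p = 0.0368). Whether the CRT3 probes differ from each other was not tested.

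CNX1, the membrane-bound partner of the calreticulins, had 2.82, 3.21, 3.09 and 3.16 on its brightest probe in 35S::Rap2.9-GFP leaves, against 2.86, 2.94, 2.71 and 2.86 in Col-0 leaves. Replicate 1 of 35S::Rap2.9-GFP lay within the Col-0 range, and the other transgenic arrays lay above it. The change was 0.22 ± 0.10 (SE, n = 4 each, adjusted p = 0.116), with 0.40 within slide 1 and 0.05 within slide 2. Its second probe had 1.2, 1.42, 1.64 and 1.67 in 35S::Rap2.9-GFP, against 0.94, 1.19, 1.18 and 1.19 in Col-0. Those genotypes were apart by a small margin, and the change of 0.36 ± 0.12 missed the threshold (adjusted p = 0.0524). Without 35S::Rap2.9-GFP replicate 1 the brightest probe passed (change 0.31, adjusted p = 0.0216), which made 7 of the 10 genes higher.

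PDIL1-1 did not pass the threshold with any of its 3 probes. The brightest had 1.00, 0.87, 1.33 and 1.27 in 35S::Rap2.9-GFP leaves, against 0.75, 0.98, 0.95 and 0.88 in Col-0 leaves, and 35S::Rap2.9-GFP replicate 2 lay inside the Col-0 range. The changes were 0.23 ± 0.11 (adjusted p = 0.157), 0.02 ± 0.07 (adjusted p = 0.879) and 0.10 ± 0.08 (adjusted p = 0.403), SE with n = 4 each. The 95% interval of the brightest probe ran between -0.03 and 0.50, which covers a change of the size seen in BIP1. The change of the second probe turned to -0.073 with median scaling, where the median over all genes was -0.059.

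BZIP60 had 2.68, 2.40, 2.2 and 2.52 in 35S::Rap2.9-GFP leaves, against 2.03, 2.74, 2.73 and 2.80 in Col-0 leaves. Col-0 replicate 1 was below all other arrays and the other Col-0 arrays were above all transgenic ones. The change was -0.12 ± 0.19 (SE, n = 4 each, 95% interval -0.57 to 0.32, adjusted p = 0.643), and its sign differed between slides, at 0.08 within slide 1 and -0.33 within slide 2. Without Col-0 replicate 1 the change was -0.31 (adjusted p = 0.0886). The single probe gives a total signal, and the spliced and unspliced forms of the transcript were not separated.

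**Figure D2:**
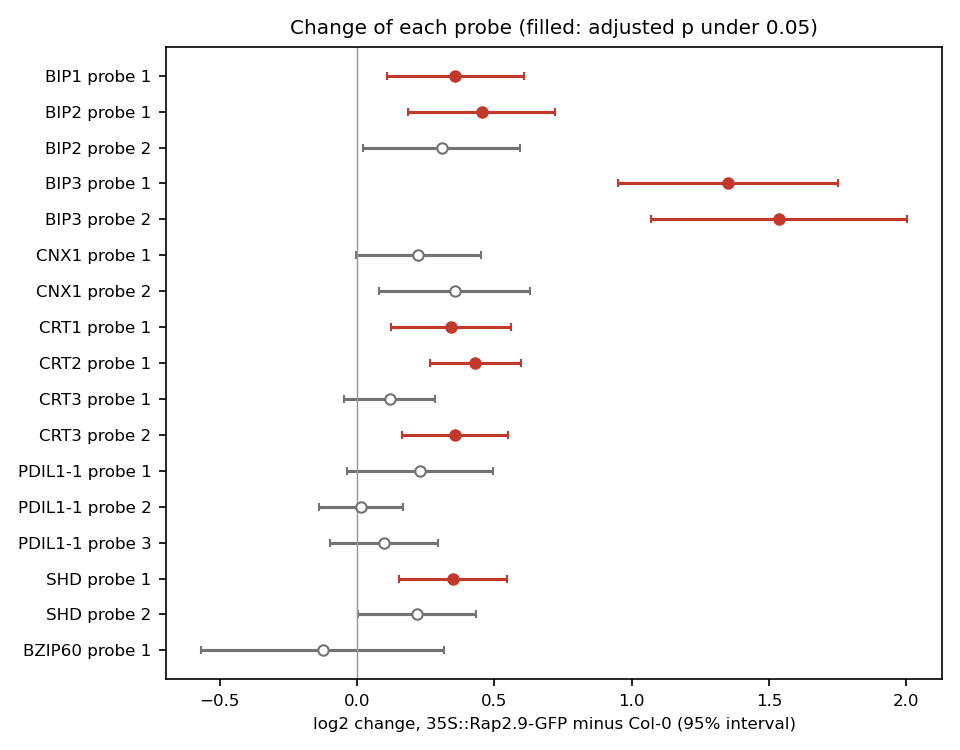
Log2 change of each of the 17 probes, 35S::Rap2.9-GFP minus Col-0, with its 95% interval from the limma fit (n = 4 arrays per genotype). Filled points have an adjusted p under 0.05. The BIP3 probes lie at 1.35 and 1.54, the other filled points lie between 0.34 and 0.45, and BZIP60 is the 1 probe below 0.

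The 10 genes also varied between arrays within a genotype. Relative to the Col-0 mean of each gene, the median over the 10 genes was 0.16, 0.35, 0.46 and 0.40 on 35S::Rap2.9-GFP arrays 1 to 4, against -0.12, 0.10, 0.06 and 0.04 on Col-0 arrays 1 to 4. Replicate 1 was thus the lowest of its genotype in both groups, although the numbers do not pair the samples. Across the 8 arrays, after subtraction of the genotype means, the correlation between pairs of the 10 genes ran from -0.48 for BIP3 with CNX1 up to 0.89 for CRT2 with CRT3. These describe 8 arrays that share scaling and hybridisation.

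The nearest genes to BIP2 by that measure, among 20277 other loci, were AT1G73810 (r = 0.98), the messenger RNA decapping enzyme gene DCP2 (0.98), AT3G15920 (0.97), AT2G15580 (0.97) and AT2G18360 (0.96). None of them is a listed ER gene, and 35 loci exceeded 0.9. Among the 100 nearest were 2 listed ER genes, SEC61A-3 at rank 51 (0.89) and SEC61B-1 at rank 60 (0.88), and SDF2 followed at rank 126 (0.85). CRT1 came at rank 201 with 0.82, BIP1 at rank 450 with 0.75 and SHD at rank 1013 with 0.65.

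Beyond the 10 genes, 4 lists covered the rest of the ER pathway. Together 16 of their 70 tested genes were higher (22.9%), 2 were lower (2.86%) and 52 did not pass, with a median change of 0.09. Over all genes the shares were 18.6% and 15.9%, so the share of higher genes was near the background and the share of lower genes was below it. Without 35S::Rap2.9-GFP replicate 1 the counts were 16 higher and 1 lower. With median scaling 10 were higher and 2 lower. Normexp with the extreme backgrounds left in gave 8 higher and 0 lower, ending among others the calls of ERDJ3A (change 0.28, adjusted p = 0.864), TIN1 (0.32, adjusted p = 0.424) and DAD2 (0.42, adjusted p = 0.0826) described below, and with the extreme backgrounds replaced 15 were higher and 1 lower.

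The folding enzymes and co-chaperones held most of the higher genes, with 9 of 23 higher, 1 lower, 13 not past the threshold and a median of 0.16. The shares were 39.1% higher and 4.35% lower, against 18.6% and 15.9% over all genes. ERDJ3A, a J-domain partner of BiP, had -3.23, -4.11, -3.48 and -3.65 in 35S::Rap2.9-GFP leaves, against -4.85, -4.63, -4.22 and -4.30 in Col-0 leaves. It did not overlap between genotypes and was higher by 0.88 ± 0.21 (SE, n = 4 each, adjusted p = 0.0165). Among the disulfide isomerases, PDIL2-2 was higher by 0.57 ± 0.12 (adjusted p = 0.00865) and PDIL1-2, a close relative of PDIL1-1, by 0.54 ± 0.08 (adjusted p = 0.00223). PDIL1-2 had 0.36, 0.41, 0.67 and 0.59 in 35S::Rap2.9-GFP, against -0.11, -0.02, -0.02 and 0.03 in Col-0, a clear gap between the genotypes. ERO1, the oxidase that recharges the isomerases, was higher by 0.52 ± 0.14 (adjusted p = 0.0235), a call lost without replicate 1 (adjusted p = 0.0532) or replicate 4 (0.0616) of 35S::Rap2.9-GFP. PDIL5-1, another isomerase, was the 1 lower gene, at -0.23 ± 0.04 (adjusted p = 0.00677), and was chosen for naming after its value was seen.

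The sensors and transcription factors of the UPR had 2 of 13 tested genes higher (15.4%) and 1 lower (7.69%), while 10 missed the threshold. Over all genes the shares were 18.6% and 15.9%, so the share of higher genes was not above that of all genes. The median of the list was 0.08 (-0.0067 with median scaling, where that of all genes was -0.059). TIN1, a gene known for its induction by the glycosylation inhibitor tunicamycin, had -2.42, -2.15, -2.0 and -2.04 in 35S::Rap2.9-GFP leaves, against -3.16, -2.88, -2.67 and -2.49 in Col-0 leaves. Its genotypes were apart, and it was higher by 0.65 ± 0.16 (SE, n = 4 each, adjusted p = 0.0171). BI1, the cell death suppressor Bax inhibitor 1 of the ER membrane, was higher by 0.36 ± 0.06 (adjusted p = 0.00417) with all 3 of its probes past the threshold, and lost the call with median scaling (adjusted p = 0.0572). BAG7, an ER-resident partner of BiP, was lower, at -0.24 ± 0.06 (adjusted p = 0.0268), again with all 3 probes past the threshold. Its call was lost without replicate 1 (adjusted p = 0.0576) or 3 (0.0516) of 35S::Rap2.9-GFP and without replicate 1 (0.0625), 3 (0.0596) or 4 (0.0539) of Col-0.

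The sensors and membrane-bound factors did not pass, with changes of 0.08 for IRE1A, 0.10 for IRE1B, 0.09 for BZIP28 and 0.02 for BZIP17, genes chosen for naming after their values were seen. All of these but IRE1B turned negative with median scaling, at -0.0067, -0.0018 and -0.067. The median over all genes moved as well, from 0.030 to -0.059. NAC103, a transcription factor gene downstream of bZIP60 and likewise named after its value was seen, had -4.01, -5.53, -5.50 and -6.32 in 35S::Rap2.9-GFP leaves, against -6.82, -6.62, -6.46 and -6.33 in Col-0 leaves. All 4 transgenic arrays lay above the Col-0 arrays, the lowest of them by a very small margin, and only 2 of the 4 Col-0 arrays were well above background. The change of 1.22 ± 0.44 missed the threshold (adjusted p = 0.0686).

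ER-associated degradation returns misfolded proteins to the cytosol for destruction. It had a median of 0.09, with 2 of 15 genes higher (13.3%, against 18.6% over all genes) and 0 lower (against 15.9%). The 2 higher genes were the glycan-removing enzyme gene PNG1 at 0.35 ± 0.07 (adjusted p = 0.00871) and the ubiquitin ligase gene DOA10B at 0.27 ± 0.08 (adjusted p = 0.0403). The dimmer PNG1 probe, at 0.06, did not pass. Both genes lost the call with median scaling (adjusted p = 0.0782 and 0.185). DOA10B also lost it when 35S::Rap2.9-GFP replicate 1, 3 or 4 or Col-0 replicate 1, 2 or 3 was removed, with adjusted p up to 0.0958.

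The translocon, through which proteins enter the ER, and the N-glycosylation enzymes had 3 of 19 tested genes higher and 0 lower by the brightest probe. Their median was 0.05 (-0.042 with median scaling, where that of all genes was -0.059). The share of higher genes was 15.8%, against 18.6% over all genes, of which 15.9% were lower. Dimmer probes differed for some genes. RSW3 had 3 of its 5 probes called lower (down to -0.58) and SEC61G-3 had 1 of 2 (-0.42), while SEC61A-3 had 2 of 4 called higher (up to 0.32). The channel subunit gene SEC61A-1 was higher by 0.49 ± 0.06 (adjusted p = 0.00104) and passed in all 22 other settings. The oligosaccharyltransferase subunit genes DAD2 and OST1B were higher by 0.53 ± 0.08 (adjusted p = 0.00238) and 0.22 ± 0.04 (adjusted p = 0.00663), the OST1B call being lost with median scaling (adjusted p = 0.151). The regulators NPR1, NPR3, NPR4 and TBF1 formed a list of 4, with 2 higher and 0 lower, beside 18.6% and 15.9% of all genes. NPR1, at 0.43 ± 0.10 (adjusted p = 0.0134), is the coactivator named above. NPR4, a salicylic acid receptor, stood at 0.40 ± 0.13 (adjusted p = 0.0443) and lost the call with median scaling (adjusted p = 0.134). It lost it also without replicate 2 (0.0819), 3 (0.0707) or 4 (0.1) of 35S::Rap2.9-GFP and without replicate 1 (0.0985) or 2 (0.0926) of Col-0.

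**Figure D3:**
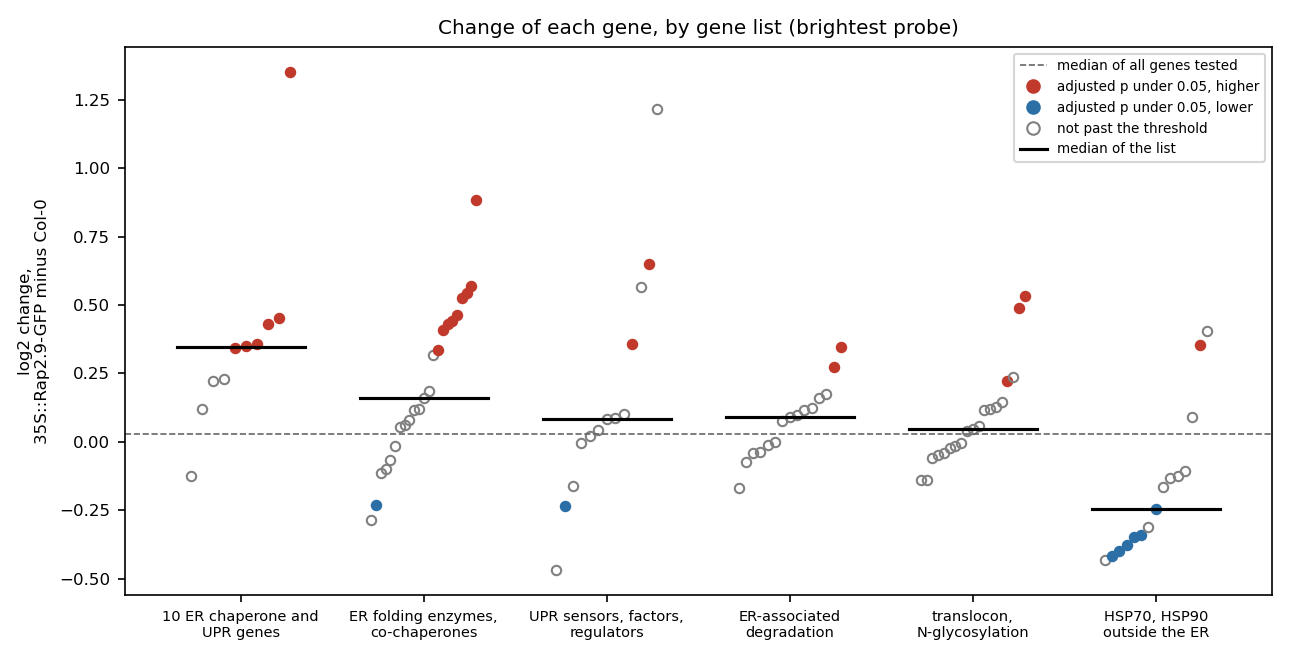
Log2 change of every tested gene by list, 35S::Rap2.9-GFP minus Col-0, each gene by its brightest probe. Red and blue points have an adjusted p under 0.05, open points do not, bars are list medians and the dashed line is the median of all genes at 0.03. The 10 ER chaperone and UPR genes have a median of 0.35, the ER lists 0.05 to 0.16, and the HSP70 and HSP90 genes outside the ER -0.25.

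HSP70 and HSP90 chaperones also work in the cytosol, chloroplast and mitochondrion, which sets the ER members beside their relatives. Of 15 such genes 1 was higher (6.67%), 6 were lower (40%) and 8 did not pass the threshold. Over all genes 18.6% were higher and 15.9% were lower, with a median of 0.03. The median of the 15 genes was -0.25, and it stayed between -0.34 and -0.21 in the 22 other settings. The main cytosolic HSP70, HSC70-1, had 4.48, 4.77, 4.69 and 4.63 in 35S::Rap2.9-GFP leaves, against 5.05, 4.97, 5.00 and 5.22 in Col-0 leaves. All transgenic arrays were below all Col-0 arrays, the change was -0.42 ± 0.08 (SE, n = 4 each, adjusted p = 0.00761), and all 8 HSC70-1 probes passed the threshold as lower. Among the genes called lower, the next largest changes were in the mitochondrial mtHsc70-1 (-0.40 ± 0.06, adjusted p = 0.00273), the cytosolic HSP90.2 (-0.38 ± 0.09, adjusted p = 0.0155) and HSP90.4 (-0.35 ± 0.08, adjusted p = 0.0164). The dimmer HSP90.2 probe, at -0.28, did not pass. With normexp and the extreme backgrounds left in, HSC70-1 (adjusted p = 0.0906), HSP90.2 (0.0559) and HSP90.4 (0.108) lost the call. HSP90.1 (-0.43 ± 0.21, adjusted p = 0.157) and HSC70-2 (0.40 ± 0.26, adjusted p = 0.266), both cytosolic and named after their values were seen, had changes as large that did not pass the threshold. HSP70-17, a further HSP70 family gene that the list of folding enzymes places in the ER, also named after its value was seen, stood at -0.07 ± 0.10 (adjusted p = 0.619). Its dimmer probe had a change of 0.27 that did not pass either.

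The remaining lower genes, named after their values were seen, were mitochondrial HSP90.6 at -0.34 and chloroplast cpHsc70-2 at -0.25. The cpHsc70-2 call was lost without replicate 2 (adjusted p = 0.0524) or 3 (0.0639) of 35S::Rap2.9-GFP and without replicate 1 (0.0591), 3 (0.0616) or 4 (0.0538) of Col-0. The 1 higher gene, cytosolic HSP70-5, stood at 0.35 (adjusted p = 0.0267) and lost the call with median scaling (0.0712) and without any of 7 arrays, all but 35S::Rap2.9-GFP replicate 2, with adjusted p up to 0.0693.

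Within an array scaling cancels, so the change of BIP2 or SHD was also taken relative to each relative outside the ER on the same arrays. These 15 pairs, BIP2 with 9 HSP70 genes and SHD with 6 HSP90 genes, were chosen after the values were seen and are given as a description with no test. In 35S::Rap2.9-GFP relative to Col-0, BIP2 changed by 0.87 more than HSC70-1 and by 0.85 more than mtHsc70-1. SHD changed by 0.73 more than HSP90.2, by 0.69 more than HSP90.6 and by 0.47 more than the chloroplast HSP90.5. The smallest differences were those of BIP2 with cpHsc70-1 (0.36), HSP70-5 (0.10) and HSC70-2 (0.05).

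**Figure D4:**
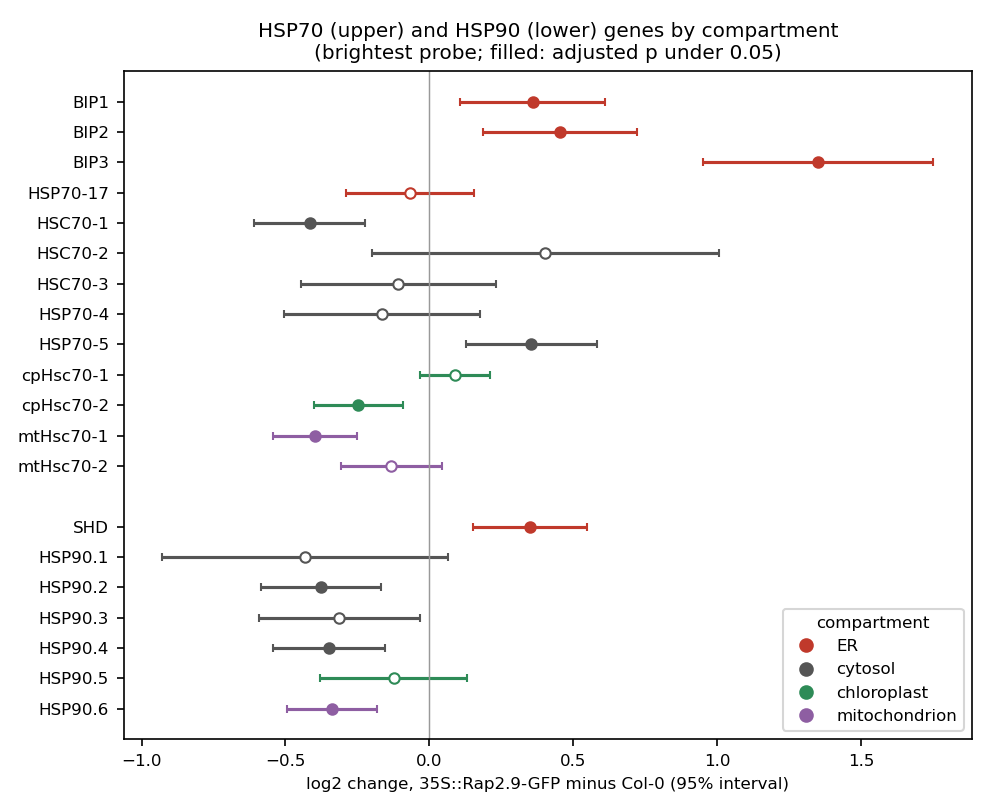
Log2 change of HSP70 genes (upper block) and HSP90 genes (lower block), 35S::Rap2.9-GFP minus Col-0, with 95% intervals from the limma fit (n = 4 arrays per genotype), coloured by compartment. Filled points have an adjusted p under 0.05. BIP1, BIP2, BIP3 and SHD lie between 0.35 and 1.35, the ER gene HSP70-17 lies at -0.07, and of the 15 genes in other compartments 12 lie below 0, HSC70-3 among them turning to 0.012 without Col-0 replicate 3.

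Markers of some other tissues moved with genotype, and so did some of the 5 leaf mesophyll markers, which were above background on all arrays. Of these 5, 2 were higher by the brightest probe (LHCB2.1 by 1.04 and CA1 by 0.96). The summed signal of the 5, in units of the 75th percentile, was 475 to 621 in 35S::Rap2.9-GFP and 506 to 574 in Col-0. Dimmer probes of the others were also called higher, at 4 of 9 probes for RCA, 3 of 13 for RBCS1A and 1 of 9 for LHCB1.3. Of their probes 0 were called lower. All 4 xylem markers were higher, with a summed signal of 1.40 to 2.25 in 35S::Rap2.9-GFP and 0.545 to 1.42 in Col-0. Both root markers were higher as well, with 0.347 to 1.11 in 35S::Rap2.9-GFP and 0.0801 to 0.168 in Col-0. Beside these short lists, 18.6% of all genes tested were higher and 15.9% were lower.

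Both tested flower organ markers, AG and SEP3, were higher too, while AP3 was well above background on no array, and the sum of the 3 was 0.156 to 0.279 in 35S::Rap2.9-GFP and 0.0541 to 0.122 in Col-0. The senescence marker SAG12 was higher, at 0.0195 to 0.615 in 35S::Rap2.9-GFP and 0.00227 to 0.0103 in Col-0. That call rests on 1 of its 2 probes, which was not well above background on every Col-0 array. None of the 3 seed markers passed the filter (0.00979 to 0.0882 in 35S::Rap2.9-GFP and 0.00708 to 0.0369 in Col-0). Neither phloem marker passed the threshold by its brightest probe (4.78 to 6.09 in 35S::Rap2.9-GFP and 6.25 to 6.69 in Col-0). Of the 3 probes of the phloem marker SUC2, with changes of -0.39 to -0.19, 1 was called lower. With single arrays removed, XCP1 and XCP2 of the xylem list lost the call in 6 of 8 fits each, the root marker NRT2.1 in 5, and CA1 and SAG12 in 4 each. The part of these tissues in the chaperone values was not tested.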

How the data were processed

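Leaf RNA of 4 35S::Rap2.9-GFP and 4 Col-0 samples was measured on 1-colour Agilent arrays of design 021169. Per the file headers, Feature Extraction 11.5.1.1 gave the intensity of each spot, background-subtracted and detrended, with no scaling between arrays. The deposited series matrix holds log2 values that comparison with the scanner signals showed to be centred per probe. How they were normalized before deposit is unknown here. Its column medians were -0.0146, -0.0040, -0.0025 and 0.0019 for 35S::Rap2.9-GFP replicates 1 to 4 and 0.0015, 0.0116, -0.0036 and 0.0041 for Col-0 replicates 1 to 4. Across probes its columns correlated with centred scanner values at r = 0.658 for 35S::Rap2.9-GFP replicate 1 and 0.851 to 0.969 for the others.

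Control spots (1417) and 25 to 63 outlier spots per array were left out. Log2 processed signals minus the 75th percentile of each array were fitted by genotype in R 4.3.3 with the lmFit and eBayes functions of limma 3.58.1 (two-sided), and the files were read with the package data.table (version 1.17.8). Probes well above background on at least 4 of 8 arrays entered, which left 33165 of 43603, and Benjamini-Hochberg adjustment ran over all of them. RefSeq transcript names matched 34348 probes to loci. No genome position is given because the array's build and that of the RefSeq gene list differ in name. A gene is represented by its brightest tested probe, which left 25107 genes, 20278 of them with a locus. The fit was tested on simulated data.

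Named genes were RAP2.9, the 10 genes with every probe, up to 4 called genes per list with the largest change (or up to 2 with the smallest p), and the 5 genes nearest to BIP2. Others, apart from the tissue markers, were chosen after their values were seen. Not all of these are marked so, among them RSW3, SEC61G-3, SEC61A-3, SEC61B-1 and SDF2. The members and lists were chosen with earlier results of these data known. The genotype labels gave the groups. The alternatives were normexp background correction (offset 50; median spot signals stood in for mean signals), other scalings, the deposited table, other filters, outlier spots kept, blocks for slide or replicate number, array weights, trended and robust variances, the mean of a gene's probes and each array left out.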

Additional observations from a re-analysis of the deposited data

Results flagged for a closer look

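In 34 groups of 4 arrays (17 probes in 2 genotypes), the array farthest from the others was compared with Dixon's critical value, which chance exceeds in about 1 in 20 groups, and 4 groups exceeded it. BIP1 had 2.44 on 35S::Rap2.9-GFP replicate 1, below the 2.82 to 2.84 of the other transgenic arrays. The other 3 cases were all Col-0 replicate 1. The second BIP2 probe had -0.69 there, against -0.41 to -0.35 on the other Col-0 arrays. The second CNX1 probe had 0.94, against 1.18 to 1.19. BZIP60 had 2.03, against 2.73 to 2.80.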

How the results depend on the processing

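None of the 10 genes was called lower in any setting, though the change of BZIP60 was below 0 in all 22 other settings (-0.31 to -0.041). The counts of higher genes below follow the order the 10 genes, then the 4 ER lists, then all genes. The main counts were 6, 16 and 4668 higher, and 0, 2 and 3989 lower. Normexp gave 1, 8 and 1267 higher and 0 lower in the ER lists and 1457 lower in all. That setting was distorted by local backgrounds of up to 6580 and 17876 on 2 arrays (median 23.5 and 23). With such backgrounds replaced, an alternative chosen after seeing the data, 6, 15 and 3755 were higher, and 1 was lower in the ER lists. BIP3 then changed by 1.00, against 0.72 (adjusted p = 0.21) with all backgrounds kept. Median scaling gave 2, 10 and 3217. The replicate numbers do not pair the samples (r of same-numbered deviations 0.14, -0.09, -0.29 and 0.26; 3 of 8 samples correlate best with their own number). A replicate block gave 6, 14 and 4061 higher, with 1 lower in the ER lists and 2976 in all. The replicate block with slide gave 3, 7 and 2794 higher, with 0 lower in the ER lists and 1864 in all. The slide block gave 6, 16 and 4262. Without a filter the ER lists had 1 lower gene, and averaging all probes per gene gave 4. Leaving out 1 array gave 3 to 7, 15 to 17 and 3544 to 4386 higher, with 1 to 3 lower in the ER lists and 2989 to 3988 in all. Of the 10 genes, 3 were higher without 35S::Rap2.9-GFP replicate 4 and 3 without Col-0 replicate 4, while 4 were higher without 35S::Rap2.9-GFP replicate 3. PDIL1-1 changed sign without a call. Its probe 2 had -0.073 with median scaling and, with 1 array left out, -0.017 (without 35S::Rap2.9-GFP replicate 2) to 0.053 (without 35S::Rap2.9-GFP replicate 1), being negative also without Col-0 replicate 1 (-0.0080). Its probe 3 had -0.024 with normexp. Among single probes of the 10 genes, 327 values kept direction and call, 29 lost the call and 14 gained it. Except for normexp, whose backgrounds are given, the cause was not tested. Fits with 1 array left out rest on fewer arrays, and the part of this in the lost calls was not tested either. With 4 arrays per genotype, changes near 0.36 fell on either side of the threshold.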
